A study of Homo sapiens with 4 samples.

Results

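The 60 genes described here encode the machinery that separates chromosomes in mitosis, namely mitotic kinases, the spindle assembly checkpoint, the kinetochore, spindle-associated proteins and the cytokinesis apparatus. They were chosen by symbol with earlier results of the same KH-3 comparison in view, so their changes are given as a description and not as a test. The members are the 60 listed symbols that have a protein-coding row in the deposited table, out of 15113 gene symbols in all, and every one of the 60 was found. Kinesins and condensins are not included, apart from the kinetochore motor CENPE. The 60 genes have 172 protein-coding transcripts in the table, out of 26348.

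The cells were MDA-MB-231, an established line of human triple-negative breast cancer with mesenchymal features. One group received DMSO, the solvent, and the other 10 µM KH-3, a small molecule described by the study as an inhibitor of HuR, an RNA-binding protein that stabilises many mRNAs. Both groups were treated for 24 h, and each comprised 2 mRNA-seq libraries. The study's methods name them biological replicates. The deposited table has 1 mean normalized read count, 1 log2 change, 1 p-value and 1 q-value per transcript, so values per library, their spread and the sequencing depth are unknown. The error used throughout is the implied standard error, obtained by dividing the absolute log2 fold change (log2 change) by the normal z of its p-value, and 95% intervals are built from it. Vimentin, AXL, ANXA1, CAV1, PLAU and CD44 were all listed, with 427 to 10135 mean normalized reads per kb, while ESR1, PGR and CDH1 had no row. The epithelial genes EPCAM and KRT8 were listed at 43.3 and 384 reads per kb.

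As background, most of these genes are silent in resting cells and are switched on in G2 phase and mitosis. The kinetochore ties each centromere to spindle microtubules, the checkpoint holds back anaphase until all chromosomes are attached, and the anaphase-promoting complex with its activator CDC20 then destroys securin and cyclin B. Their joint expression in proliferating tumours makes them common markers of proliferation.

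Most members were called lower with KH-3. One transcript stood for each gene, the protein-coding one with the smallest implied standard error. In this form 43 of the 60 genes were called lower, which means a q-value under 0.05 in the deposited table, 17 were not called and 0 were called higher. Of all 12103 genes with such a transcript, 14.8% were called lower and 10.8% higher. The median log2 change of the 60 genes was -1.30, which is 40.6% of the level in DMSO, against -0.04 for all genes. The log2 change was below 0 in 59 of the 60, and 39 were at or below -1. Members stood at high read counts, with a median of 767 against 255 for all genes, and the calls of the table changed with the count. Of the 2773 genes at or above 767 reads, 35.2% were called lower, with a median log2 change of -0.27. The part of read count in the members' decrease was not tested. In bulk RNA, fewer cells in G2 phase or mitosis and less of each mRNA per cell cannot be told apart.

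**Figure D1:**
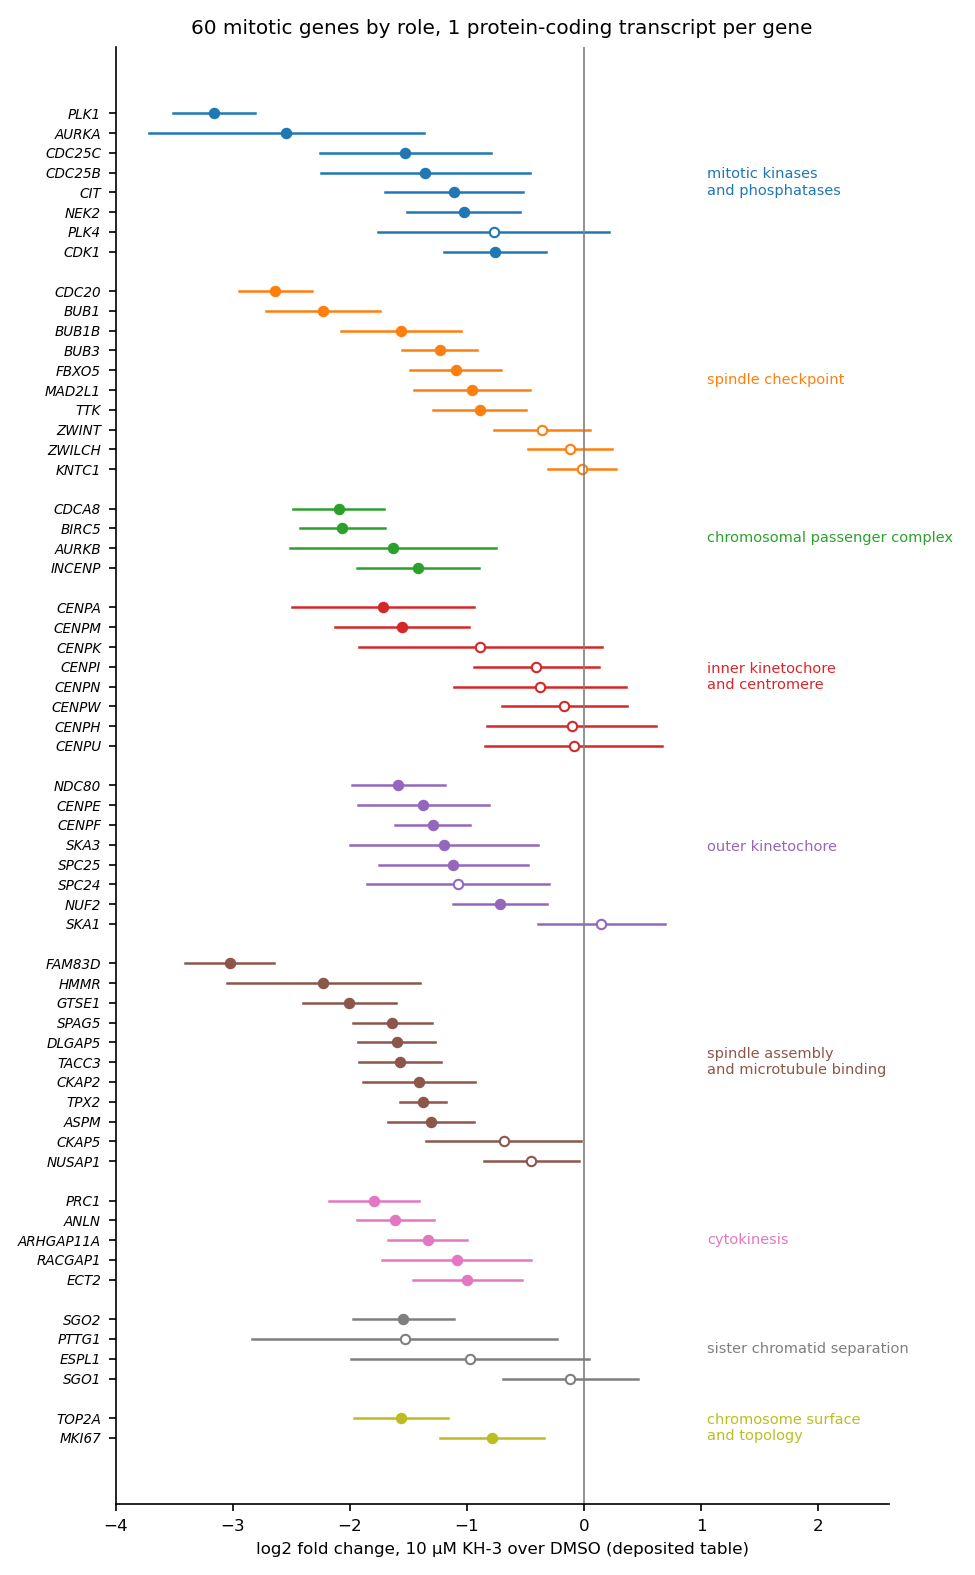
Log2 change of 10 µM KH-3 over DMSO (x axis) for 1 protein-coding transcript of each of the 60 genes, in colours by role. Points are the deposited values, lines their 95% intervals from the implied standard error, filled points have a q-value under 0.05 and open points do not. PLK1 and FAM83D lie farthest to the left at -3.16 and -3.03. Of the 8 inner kinetochore genes, 6 have open points, from -0.89 for CENPK to -0.09 for CENPU.

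**Figure D2:**
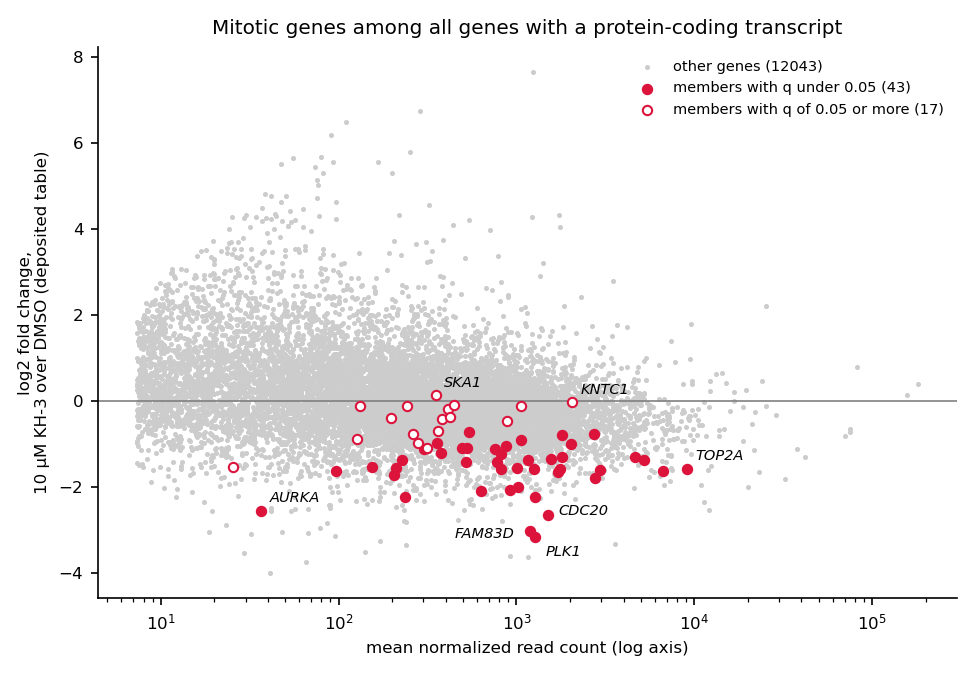
Mean normalized read count (x axis, log scale) against log2 change of KH-3 over DMSO (y axis) for 1 protein-coding transcript per gene. Grey points are the other genes, filled red points the 43 members called lower and open red points the 17 members not called. The members have read counts from 25.4 to 9047 and lie below 0, except SKA1 at 0.15.

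Among the mitotic kinases and phosphatases, 7 of 8 were called lower, and PLK1 changed most. PLK1 drives mitotic entry, centrosome maturation and the attachment of kinetochores. Its transcript PLK1-001 had a log2 change of -3.16 with an implied standard error of 0.18 and a q-value of 3.89e-66, so its level with KH-3 was 11.2% of that in DMSO (95% interval 8.76 to 14.2%). By p-value it was at rank 4 of the 12103 genes. AURKA, the kinase of the spindle poles, fell by 2.54 on the log2 scale to 17.1% in AURKA-007, a transcript of 810 bases. This value rests on only 36.6 mean normalized reads, and its interval ran from 7.59 to 38.7%. The other coding transcripts, AURKA-001 at -0.97 and AURKA-008 at -0.78, were not called, with q-values of 0.528 and 0.640. CDC25C and CDC25B, the phosphatases that activate CDK1 at the onset of mitosis, had log2 changes of -1.53 and -1.36. The 5 coding transcripts of CDC25B were far apart, since CDC25B-003 was called lower at -2.04, while CDC25B-202, with the most reads, was at -0.42 with a q-value of 0.837. NEK2, which separates the centrosomes, and CIT, the citron kinase of the midbody, were close to each other at -1.03 and -1.11. CDK1 itself, the kinase at the centre of mitotic entry, changed least of those called, at -0.76 with an implied standard error of 0.22. PLK4, which starts centriole duplication, was not called, with a log2 change of -0.77 and a q-value of 0.406. Its standard error was 0.50, against 0.22 for CDK1, whose value was nearly the same.

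In the spindle checkpoint group, which here also holds FBXO5, not itself a checkpoint protein, 7 of 10 were called lower. CDC20, the activator of the anaphase-promoting complex and the target of the checkpoint, fell by 2.64 on the log2 scale to 16.1% of DMSO (standard error 0.16, q-value 6.05e-58). BUB1 and BUB1B, the kinase and the pseudokinase that load checkpoint proteins on the kinetochore, had log2 changes of -2.23 and -1.56. BUB3, which anchors both of them, was at -1.23, and all 3 of its protein-coding transcripts were called. FBXO5, an inhibitor of the anaphase-promoting complex, was at -1.09, MAD2L1, which binds and blocks CDC20, at -0.96, and TTK, the kinase that starts the signal, at -0.89. ZWINT, ZWILCH and KNTC1 were not called. KNTC1 and ZWILCH are subunits of the complex that brings dynein and MAD proteins to unattached kinetochores, and ZWINT links that complex to the outer kinetochore. KNTC1 had a log2 change of -0.02 with the small standard error of 0.15, for a level of 98.6% of DMSO (95% interval 80.6 to 121%). ZWILCH was at -0.12 with an interval from 71.9 to 118%, and ZWINT at -0.36 with a q-value of 0.327, beside its transcript ZWINT-009, called lower at -0.87. In the representative transcripts, the intervals of KNTC1 and ZWILCH lay wholly above those of CDC20, BUB1, BUB1B and BUB3. Other transcripts of these genes were less apart. Another BUB1 transcript, with 670 reads, was not called at -0.89, and its interval from 32.2 to 90.7% overlapped those of KNTC1 and ZWILCH. Another ZWILCH transcript, with 456 reads, was at -0.56, and its interval from 41.8 to 111% overlapped those of BUB1B and BUB3.

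In the chromosomal passenger complex 4 of 4 subunits were called lower. This complex corrects wrong attachments at the centromere and then moves to the midzone. CDCA8 (borealin) and BIRC5 (survivin) had log2 changes of -2.10 and -2.06, with implied standard errors of 0.20 and 0.19. AURKB, the catalytic subunit, was at -1.63 with a larger error of 0.45, and INCENP, the scaffold, at -1.42 with 0.26. The intervals of the 4 subunits overlapped.

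The kinetochore had unequal counts in its layers. Of the 8 inner kinetochore and centromere genes, 2 were called lower and the median log2 change was -0.39, whereas of the 8 outer kinetochore genes 6 were called lower with a median of -1.15. CENPA, the histone H3 variant that marks the centromere, was at -1.72 (q-value 0.00031), and CENPM, a subunit of the constitutive network, at -1.56 (q-value 4.28e-06). The other 6 inner genes belong to the same constitutive network. Their log2 changes were -0.89 for CENPK, -0.41 for CENPI, -0.38 for CENPN, -0.17 for CENPW, -0.11 for CENPH and -0.09 for CENPU, with q-values of 0.343 or more. The standard errors of these 6 ran from 0.27 for CENPI and CENPW to 0.53 for CENPK. The intervals of CENPK and CENPN held a log2 change of -1, while those of CENPI, CENPW, CENPH and CENPU did not reach it. A smaller decrease of any single one could have been missed. Whether the layers differ was not tested.

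Within the NDC80 complex, the main microtubule anchor of the outer kinetochore, the representative transcripts had unequal values. NDC80 was at -1.59, SPC25 at -1.12, SPC24 at -1.08 and NUF2 at -0.72. Another NUF2 transcript, NUF2-002, with 221 reads, was called lower at -1.81, so the place of NUF2 in this order depends on the transcript. SPC24 lay just outside the call, with a q-value of 0.0503. CENPE, the kinetochore motor, and CENPF, a large coiled-coil protein of the outer layer, were at -1.37 and -1.29. The SKA complex, which follows depolymerising microtubule ends, had SKA3 at -1.19 with a q-value of 0.0318 and SKA1 at 0.15 with a q-value of 0.862. SKA1 was the single member with a value above 0 in its representative transcript, at 111% of DMSO (95% interval 76.1 to 161%). The intervals of SKA1 and SKA3 touched only at their ends, since that of SKA3 ran from 25.1 to 76.3%.

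Spindle assembly factors had 9 of 11 called lower and a median log2 change of -1.57. FAM83D, which brings casein kinase 1 to the spindle, fell by 3.03 on the log2 scale to 12.3% of DMSO (95% interval 9.43 to 16.0%, q-value 6.07e-51). TPX2, the activator of AURKA on spindle microtubules, was the most precisely measured member, at -1.37 with a standard error of 0.10 and 5241 mean normalized reads. HMMR, GTSE1, SPAG5, DLGAP5 and TACC3, all microtubule-associated, lay between -2.23 and -1.57. CKAP2 and ASPM, which act at spindle microtubules and poles, were at -1.41 and -1.31. NUSAP1 and CKAP5 were not called on their representative transcripts, at -0.45 and -0.69. CKAP5, the microtubule polymerase, is represented by a short transcript of 832 bases, and its 4 protein-coding transcripts spread from -1.38 to -0.32.

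In cytokinesis 5 of 5 were called lower. PRC1, which bundles the midzone microtubules, was at -1.79, and ANLN (anillin), the scaffold of the contractile ring, at -1.61 with 6627 mean normalized reads. ARHGAP11A, RACGAP1 and ECT2, which regulate RHOA at the cleavage site, were at -1.33, -1.09 and -0.998. ARHGAP11A has a close copy, ARHGAP11B, whose transcript with the most reads was at -1.27, and how reads were divided between the copies is unknown.

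Of the 4 genes of sister chromatid separation, only SGO2 was called lower. It protects centromeric cohesion and had a log2 change of -1.54 with a q-value of 2.34e-10. Its paralogue SGO1 was at -0.12 in the representative transcript SGO1-002, with an interval from 61.8 to 137% of DMSO, which did not overlap the 25.4 to 46.2% of SGO2. A second SGO1 transcript, SGO1-009, was called lower at -1.21. PTTG1 (securin) and ESPL1 (separase), the inhibitor and the protease that cuts cohesin, were at -1.53 and -0.98 with q-values of 0.121 and 0.253. The PTTG1 value rests on only 25.4 mean normalized reads. Its coding transcript with the most reads, PTTG1-002, was at -0.90 with a q-value of 0.497. In both genes transcripts of other types were called. PTTG1-007, annotated as a processed transcript, held 82.5% of the PTTG1 reads and was at -1.61 with a q-value of 7.03e-08. ESPL1-001, annotated for nonsense-mediated decay, was at -1.43 with a q-value of 0.0117, and ESPL1-003, with a retained intron, at -1.65.

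The remaining pair acts on chromosome structure. TOP2A, which untangles sister DNA, had the highest level per length of all members, at 1571 reads per kb, and a log2 change of -1.57 with an error of 0.20. MKI67, the coat of mitotic chromosomes and the source of the Ki-67 label, was at -0.79 in its representative transcript and at -1.44 in its transcript with more reads, and both were called.

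The most abundant members were not those with the lowest values. On the scale of reads per kb, TOP2A, TPX2, CDK1, ANLN and DLGAP5 stood above 1000. Their log2 changes ran from -1.61 to -0.76, while PLK1 and FAM83D, with the lowest values, stood at 571 and 502 reads per kb. In all, 51 of the 60 members were above the median level of all genes, which was 79.7 reads per kb.

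Of the 172 protein-coding transcripts of the members, 73 were called lower and 0 higher, against 9.26% lower and 6.75% higher among all 26348. The 15 member transcripts with a value above 0 had at most 351 mean normalized reads and q-values of 0.69 or more. Of the 53 genes with 2 or more protein-coding transcripts, 41 had values below 0 in all of them, and 9 had all of them called lower. BIRC5, BUB3 and DLGAP5 were called in 3 of 3. In 12 genes, CDC25B, CDC25C, CDK1, KNTC1, CENPI, CENPN, CENPU, SKA1, HMMR, CKAP2, ECT2 and SGO1, some transcripts lay above 0 and others below, and none of those above 0 was called. The isoforms of 1 gene could be far apart. PLK1-007 was at -0.28 with 59.5 reads beside the -3.16 of PLK1-001, which held 72.5% of all PLK1 reads. SPAG5-005 and ASPM-201, both called lower, were at -4.71 and -3.39 with errors of 0.68 and 0.66, beside -1.64 and -1.31 for SPAG5-001 and ASPM-001. Reads shared between isoforms were divided by the authors' estimate, so the values of 1 gene are not independent.

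**Figure D3:**
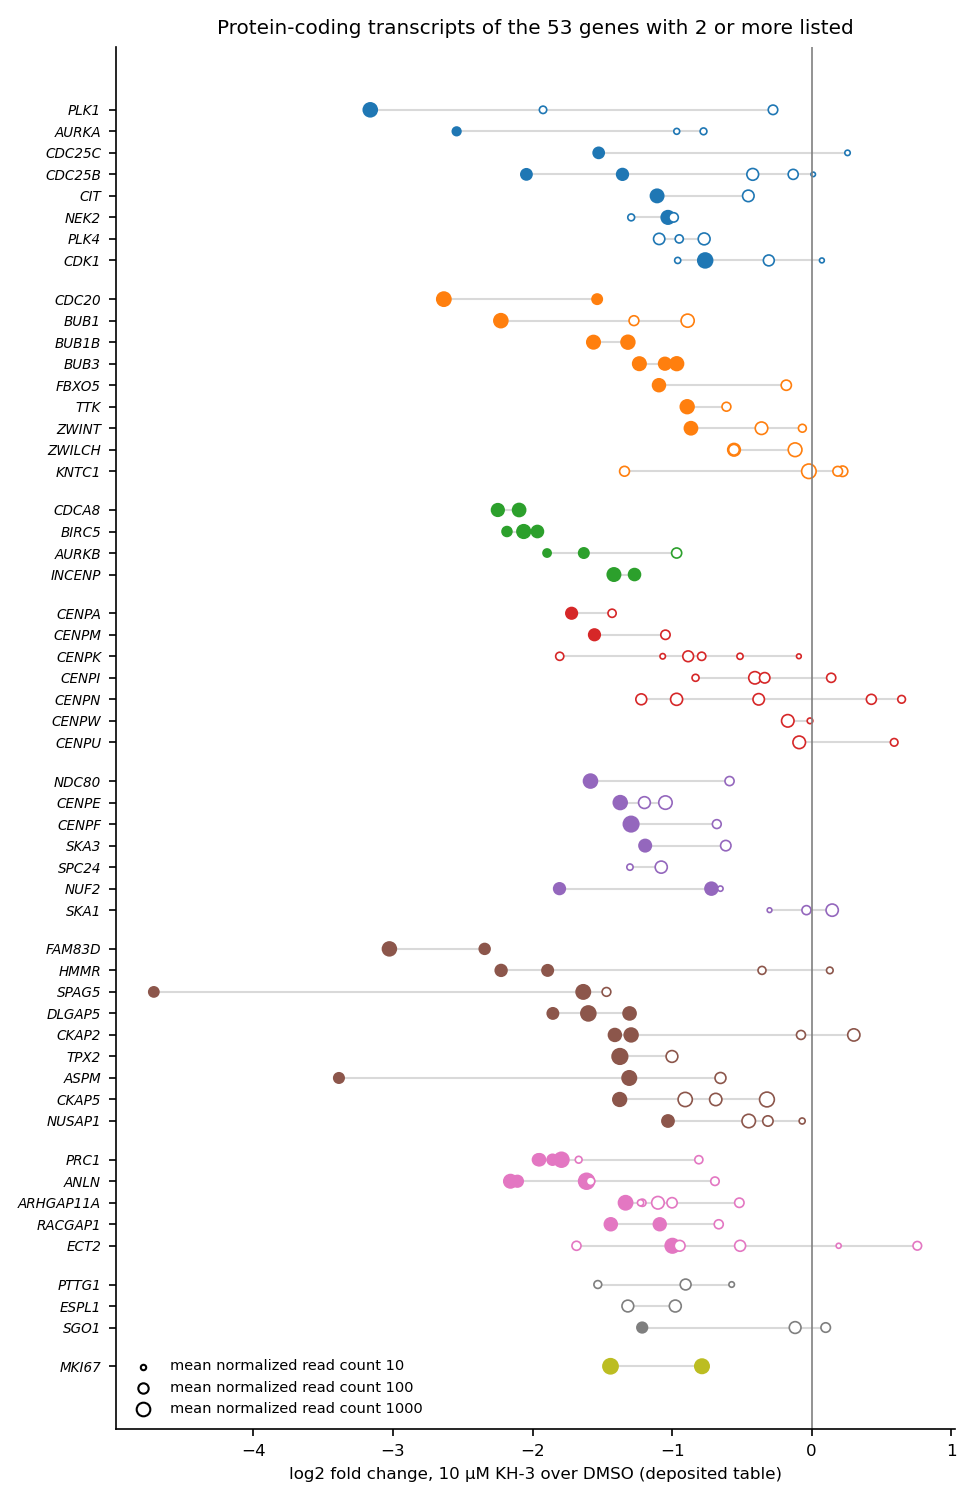
Log2 change of KH-3 over DMSO (x axis) for each protein-coding transcript of the 53 genes with 2 or more listed, ordered by role as in the plot of the members by role. Each circle is 1 transcript, its area grows with the log of its mean normalized read count, and filled circles have a q-value under 0.05. Every circle right of 0 is open.

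Transcripts of the members annotated as other than protein-coding also lay mostly below 0. The members have 76 transcripts of other types, of which 21 were called lower and 0 higher, against 3.35% called lower among all 17248 such transcripts. Their median log2 change was -0.98, and that of all such transcripts 0.05. The 43 retained-intron transcripts had a median of -1.01, the 19 processed transcripts -0.92 and the 14 transcripts marked for nonsense-mediated decay -0.91. PLK1-010 with a retained intron was at -3.47 beside the -3.16 of PLK1-001, and CDC20-003, a processed transcript, was at -2.94 beside -2.64. In TACC3 and SPAG5 the retained-intron transcripts with the most reads, at -1.44 and -1.60, lay near the coding ones at -1.57 and -1.64. In 4 genes, CENPU, MAD2L1, PTTG1 and SKA3, the transcript with the most reads was of such a type. For CENPU this transcript was at -0.24 with 1235 reads and a q-value of 0.727, beside -0.09 for its coding transcript. For MAD2L1 it was at -1.03, close to the -0.96 of the coding one.

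The promoters of many members hold sequence features known for genes of this class. Promoter sequence was not used to choose the members, but their class was, so the shares below are only a description. As background, many genes of G2 phase and mitosis carry a cell cycle genes homology region (CHR) near their start, which binds the MuvB core that works with MYBL2 and FOXM1 in dividing cells and with p130 and E2F4 in resting ones, and they often carry CCAAT boxes for the factor NF-Y. RefSeq (GRCh38.p14) gave a promoter for 50 of the 60 members. In the 250 bases before the start site, both strands were searched for CHR as TTTGAA or TTCGAA, for CCAAT, and for E2F sites as TTTCGCGC or TTTGGCGC. CHR occurred in 21 of the 50 promoters (42.0%), against 14.3% of all 35116 promoters and 9.54% of the 9485 promoters of genes with a protein-coding transcript in the table. CCAAT occurred in 32 (64.0%), against 32.0% and 35.2%. Both together occurred in 19 (38.0%), against 5.05% and 3.93%. The E2F letters were found in 2 promoters (4.0%), those of NUSAP1 and CENPU, against 0.97% and 1.71%. In 12 of the 21 CHR promoters the match nearest to the start lay within 35 bases of it, a share not computed for other promoters.

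**Figure D4:**
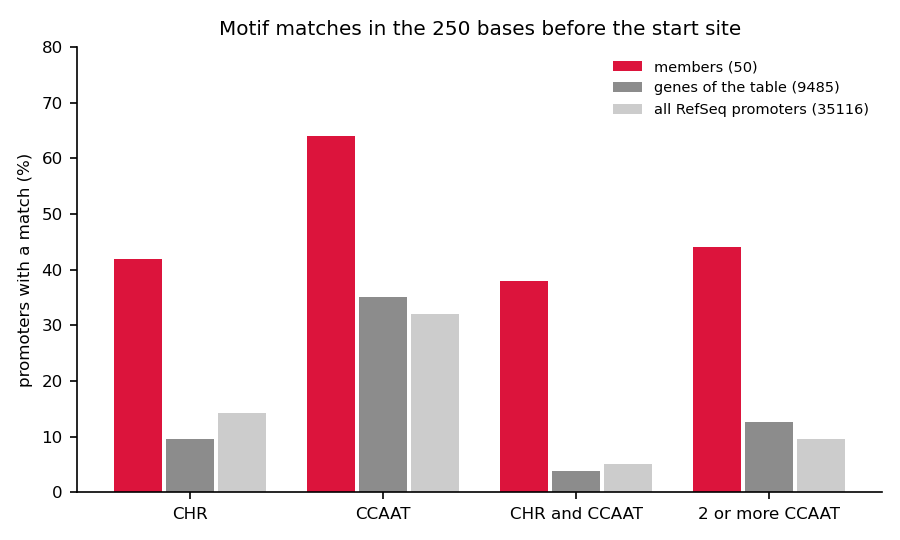
Share of promoters with a match (y axis, percent) for CHR, CCAAT, both, and 2 or more CCAAT boxes in the 250 bases before the start site. Red bars are the 50 members with a promoter, dark grey bars the genes of the deposited table with a protein-coding transcript, light grey bars all RefSeq promoters. The red bar is the highest in each group, at 42.0% for CHR and 64.0% for CCAAT.

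The 5 members with the smallest p-values among those with CHR are shown by the 160 bases before the start site, to let the element be seen in place. Capitals mark CHR and CCAAT matches on either strand, so TTCAAA and ATTGG are the reverse forms. In CDCA8 the CHR and the reverse CCAAT box share bases, and in ANLN a reverse and a forward CHR follow each other directly.
PLK1, chr16:23678729-23678888 (plus strand): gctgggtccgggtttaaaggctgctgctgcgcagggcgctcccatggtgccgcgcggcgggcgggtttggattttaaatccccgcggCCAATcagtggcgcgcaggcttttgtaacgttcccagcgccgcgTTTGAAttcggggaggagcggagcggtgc
CDC20, chr1:43358821-43358980 (plus strand): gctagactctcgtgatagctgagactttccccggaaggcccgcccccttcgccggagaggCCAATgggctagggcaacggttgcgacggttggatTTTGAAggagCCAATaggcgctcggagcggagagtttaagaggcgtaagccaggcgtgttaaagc
CDCA8, chr1:37692356-37692515 (plus strand): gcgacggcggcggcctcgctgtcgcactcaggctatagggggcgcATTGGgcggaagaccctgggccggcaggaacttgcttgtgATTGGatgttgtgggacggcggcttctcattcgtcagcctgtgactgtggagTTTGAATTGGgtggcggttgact
GTSE1, chr22:46296710-46296869 (plus strand): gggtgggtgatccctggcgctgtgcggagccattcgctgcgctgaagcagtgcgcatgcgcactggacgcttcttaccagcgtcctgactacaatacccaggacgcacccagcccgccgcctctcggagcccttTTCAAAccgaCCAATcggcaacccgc
ANLN, chr7:36389702-36389861 (plus strand): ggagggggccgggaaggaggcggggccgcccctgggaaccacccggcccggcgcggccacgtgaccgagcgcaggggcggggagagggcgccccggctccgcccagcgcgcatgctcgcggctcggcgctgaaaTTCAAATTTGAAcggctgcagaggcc

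PLK1 and CDC20 thus held both elements in this window, and their genes, on chromosome 16 from 23677656 to 23690367 and chromosome 1 from 43358981 to 43363203 of hg38, had the largest decreases of the members with a promoter in RefSeq's table. For comparison, CENPU and SGO1 are the members with the largest p-values among those with a promoter, not called and without CHR, picked after their values were seen. Each has 1 CCAAT box in the same window.
CENPU, chr4:184734097-184734256 (minus strand): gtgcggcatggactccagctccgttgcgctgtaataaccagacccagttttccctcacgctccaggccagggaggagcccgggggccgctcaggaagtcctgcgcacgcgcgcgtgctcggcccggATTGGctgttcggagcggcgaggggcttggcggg
SGO1, chr3:20186207-20186366 (minus strand): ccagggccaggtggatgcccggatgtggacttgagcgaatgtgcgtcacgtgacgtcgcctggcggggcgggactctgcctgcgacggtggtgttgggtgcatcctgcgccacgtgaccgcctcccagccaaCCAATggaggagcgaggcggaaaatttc

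Of the 21 members with CHR in the window, 18 were called lower, and their median log2 change was -1.56 with a range from -3.16 to -0.36. Of the 29 without it, 17 were called lower, with a median of -1.09 and a range from -2.23 to 0.15. The ranges overlap widely. BUB1, SPAG5 and TACC3 had no CHR match in the window and log2 changes of -2.23, -1.64 and -1.57, while CKAP5, ESPL1 and ZWINT had one and were not called. With CCAAT, the median was -1.11 over 32 members, and without it -1.36 over 18. A match of letters is not a bound site, and no match says only that these letters are not in this window.

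Beyond the members, 85 further genes of mitosis were taken in 6 lists, 80 of which had a protein-coding transcript with a value. Of these 80, 28 were called lower and 1 higher, and their median log2 change was -0.55, against 14.8% called lower and 10.8% higher among all genes and 35.2% called lower among genes at or above 767 reads. The share of these 80 genes called lower was near that of genes at or above 767 reads, but the sets are not matched in read count. Many of the 80 stood below 767 reads, such as BORA at 141 and CENPC at 92.5. A share among genes of like counts was not computed. The lists were written with earlier results known. The median of the 80 genes lay between that of the members, -1.30, and that of all genes, -0.04.

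Of the genes for the inner kinetochore and the loading of CENP-A, 4 of 13 were called lower. HJURP, the chaperone of CENP-A, was at -1.25 with an error of 0.19, and OIP5 and MIS18A, which license the loading, at -1.58 and -1.39. The other 9 were not called, and their values ran from -2.04 for CENPX, with a q-value of 0.0699 on 12.3 reads, and -0.64 for CENPS to 0.24 for ITGB3BP. Of the MIS12 and KNL1 complexes and the remaining checkpoint genes, 6 of 11 were called lower. Within the MIS12 complex, PMF1 was called lower at -1.84, while MIS12, NSL1 and DSN1 were not called, with values of 0.62, 0.55 and 0.23. SPDL1, the dynein adaptor at kinetochores, was at -1.75, TRIP13, the ATPase that remodels MAD2, at -1.28, and KNL1, the platform for BUB proteins, at -1.29. ZW10, the partner of KNTC1 and ZWILCH, was at -0.93 with a q-value of 0.00511. MAD1L1, which recruits MAD2L1, was the 1 gene called higher, at 1.82, in a transcript of 864 bases. The transcript MAD1L1-001, with about the same number of reads, 107, was at 0.26 with a q-value of 0.872.

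Of the list of anaphase-promoting complex subunits, coactivator and ubiquitin-conjugating enzymes, 5 of 15 were called lower. UBE2C and UBE2S, the ubiquitin-conjugating enzymes, were at -1.69 and -1.04. The other called genes were the subunits ANAPC1, the large scaffold, at -1.16, CDC27 at -0.93 and CDC23 at -0.87. The alternative activator FZR1 was at -0.39 with a q-value of 0.298, beside the -2.64 of CDC20. Of the entry and exit kinases and their regulators, 3 of 11 were called lower, with BORA, the activator of AURKA towards PLK1, at -1.77, the haspin gene GSG2 at -1.03 and VRK1 at -0.91. Of the centrosome and gamma-tubulin genes, 8 of 20 were called lower, with CEP55, which acts at the midbody, at -0.97, TUBG1 at -0.54 and TUBGCP3 at -1.13. Of the transcription factors of this programme, 2 of 10 were called lower, a share near the 14.8% of all genes. They were FOXM1 at -1.43 with an error of 0.41 and MYBL2 at -0.89 with an error of 0.19. The MuvB subunits LIN9, LIN37, LIN52 and LIN54 and the NF-Y subunits NFYA, NFYB and NFYC were not called, with values from -0.90 to 0.94. The value of 0.94 is that of LIN37 on 7.41 reads, near the smallest count listed, and the next highest were NFYC and LIN54 at 0.12. RBBP4, the remaining gene of this list, was not called either, at -0.72 with a q-value of 0.128.

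**Figure D5:**
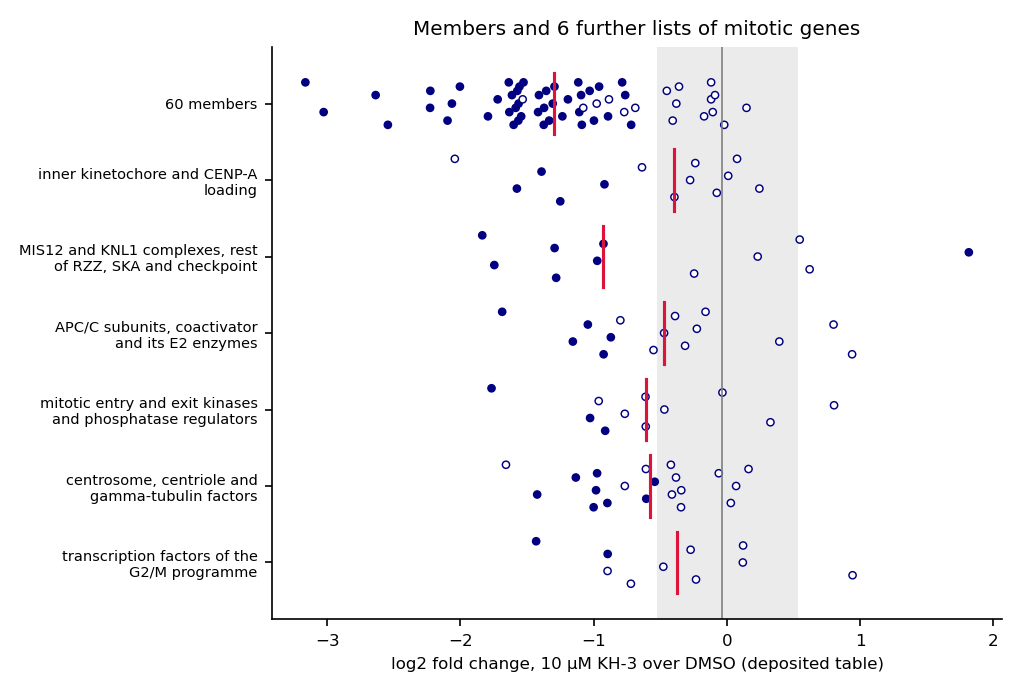
Log2 change of KH-3 over DMSO (x axis) for the 60 members and the 80 further genes in 6 lists. Each circle is 1 gene, filled where the q-value is under 0.05, red lines are medians, the grey line is the median of all genes and the grey band their middle 50%. The median of the members, -1.30, lies left of the median of every list.

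The 17 members that were not called were not shown to be unchanged. In 4 of them, NUSAP1, CKAP5, SGO1 and ZWINT, another protein-coding transcript was called lower, so 47 of the 60 genes had at least 1 such transcript. This rule is looser than that of the representative transcript, and the share of all genes that meet it was not computed. For 7 of the 17, the 95% interval held a log2 change of -1. The intervals of KNTC1, ZWILCH, ZWINT, NUSAP1, SKA1, SGO1, CENPW, CENPI, CENPU and CENPH did not reach -1.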

How the data were processed

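RNA from MDA-MB-231 cells was measured by mRNA-seq in 4 libraries, 2 with DMSO and 2 with 10 µM KH-3 for 24 h. Per the methods, the authors used STAR for mapping against GENCODE release 24 transcripts (hg38), eXpress for read counts of each transcript and DESeq2 for the comparison. Tool versions are not given in the sources used here. The deposited table holds the authors' mean normalized read count (a signal averaged over libraries that are not named), the authors' log2 fold change, and the p-value and q-value of the authors' test for 43596 transcripts. The deposited q-values matched a Benjamini-Hochberg adjustment of the p-values over these rows to within 2.11e-15. These comparison columns are the authors' own. They were used because no value per library is in the table, so no test was fitted here.

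No listed transcript has a mean normalized read count under 7.34. Implied standard errors reach no higher than 0.804, and whether fold changes were shrunken is not stated. If so, the values of weakly covered transcripts understate their change. The 149 rows without an implied error, none of them of a member, were left out of the values per gene. Lengths come from the table, gene positions from GENCODE release 44, matched by gene ID for all 60 members, and promoters from RefSeq (GRCh38.p14), matched by symbol. No protein sequence was used, so protein motifs planned for the members are not analysed here.

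The members and the further lists were chosen with earlier results of these data known. Members were named by role, and from each further list the 3 genes with the smallest p-values among those called in a direction, or fewer where fewer were called. Named outside that rule, after their values were seen, were MIS18A, PMF1, ZW10, UBE2S, CDC23, FZR1 and the subunits and factors given as not called. The values of 1 gene that the rule would have named are not reported here. The computations were tested on simulated data. Software was scipy 1.17.1, pandas 2.3.3 and numpy 2.4.6 under Python 3.11.15, with matplotlib 3.10.9 for plots.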

Additional observations from a re-analysis of the deposited data

How the results depend on the processing

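With other settings, the number of members called lower, 43 of 60, ran from 37 where a log2 change of 1 or more in size was also asked for to 47 with any protein-coding transcript, and also 47 with p-values combined per gene by the Simes method. It was 41 at a q-value under 0.01, 43 with the transcript of the largest mean normalized read count and 46 with any transcript type. The share of all genes called lower was not computed for these other settings, so the counts have no background beside them. The median log2 change of the members, -1.30, ran from -1.32 to -1.18 over 4 alternatives, the latter with each gene given as the mean of its transcripts weighted by read count. The number of member transcripts called lower, 73, ran from 61 at a q-value under 0.01 to 94 with transcripts of any type. Over the 14 alternatives, counts stayed within 1.5 times the reported one and medians stayed below 0. A count of lower calls cannot change direction, and several of these settings only widen or narrow the reported set. No paired analysis was possible because the deposited table has no values per library, and for the same reason no library could be left out and no other scaling tried. At the median standard error of the 17 members not called, a log2 change of 0.92 in size was needed for a call, and less where the error was smaller, as for KNTC1 and ZWILCH.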
